A study of Ovis aries with 6 samples.

Results

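Axon guidance ligands and receptors are the secreted or membrane-bound proteins that steer growing axons, together with the surface receptors that read them. Their transcripts were followed in 6 sheep samples labelled hypothalamus. The genes were taken by name as semaphorins, plexins, neuropilins, ephrins, Eph receptors, slits, ROBO receptors, netrins, netrin-G genes and the netrin receptors DCC and UNC5, and 70 of the 26067 deposited features qualified, of which 36 encode ligands and 34 receptors. HP stands for 3 small-tailed Han sheep, called highly reproductive by the submitters, and LP for 3 Wadi sheep, called less reproductive. All were described as healthy and alike in body composition. No treatment was given, and the sources used here state no age, sex or season. Breed and reproductive class are the same split and cannot be told apart. Full-length cDNA was amplified by PCR and read on a Nanopore instrument. The column numbers of the tables were matched to the numbers in the sample titles, because the letters differ, and every statement on HP or LP rests on that match.

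Each of these families works by contact between a ligand and a receptor that changes the cytoskeleton of the growth cone. Semaphorins bind plexins, and the secreted class 3 forms do so mostly with neuropilins as co-receptors. Ephrins sit on one cell and Eph receptor tyrosine kinases on its neighbour. Slits repel axons through ROBO receptors, whereas netrins attract through DCC and repel through UNC5 receptors. In the adult brain many of these genes stay in use at synapses and in blood vessels. During development in rodents, semaphorin signalling takes part in the migration and the axon projections of the neurons that make gonadotropin-releasing hormone.

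Libraries held 1981644 to 2732911 counts. Levels are given as CPM, counts scaled to a library total of 1000000 after TMM, edgeR's correction for differences in composition. A count of 0 allows a level of up to 3 counts, which was 1.02 to 1.59 CPM. Markers of the labelled tissue were scarce: GNRH1, KISS1, HCRT, NKX2-1 and RAX had no count in any library. TRH had 218, 399 and 317 counts in HP and CRH 1, 0 and 2, and neither had a count in LP. In LP replicates 1 to 3, OXT had 4, 7 and 0 counts, AVP 1, 4 and 5 and NPY 4, 1 and 4. SIM1 had 1, 0 and 1 there and GHRH 0, 1 and 1, and none of these LP genes had a count in HP. The 8 neuronal markers summed to 4951 to 5484 CPM of the library totals in HP and 337 to 716 in LP, and 10 markers of cerebellar granule and Purkinje cells to 4476 to 4806 in HP and 17.8 to 111 in LP. The 12 anterior pituitary markers summed to 47.2 to 139 in HP and 47169 to 299821 in LP, and 6 of them had no count in HP. LP replicate 1 was high in mural cell and fibroblast markers (5025 CPM against 234 and 1182 in LP replicates 2 and 3), and LP replicate 3 in oligodendrocyte markers (4240.4 against 17.4 and 70.5). That library also stood apart in astrocyte markers (10019.5 CPM against 155 and 125 in LP replicates 1 and 2, with 3764 to 5052 in HP) and in choroid plexus markers (7405 against 37.6 and 9.51), for which HP replicate 3 also stood apart (4537 against 114 and 120.4). The choroid plexus sum of HP replicate 3 was mostly TTR, with 11947 counts against 246 and 304 in HP replicates 1 and 2. There KCNJ13 had 20 counts against 15 and 19, and KL 16 against 0 and 3. Microglial markers summed to 39.7 to 58.2 CPM in HP and 135 to 255 in LP, and 6 of 7 tested were higher in LP. The neuronal, cerebellar, pituitary and microglial lists separated the breeds, the oligodendrocyte, astrocyte, choroid plexus and mural lists did not, and their part in the results was not tested. In such bulk tissue, fewer cells of a type and less RNA per cell cannot be told apart. A difference between HP and LP in the region or tissue taken would follow the same split, and cannot be told apart from breed.

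**Figure D1:**
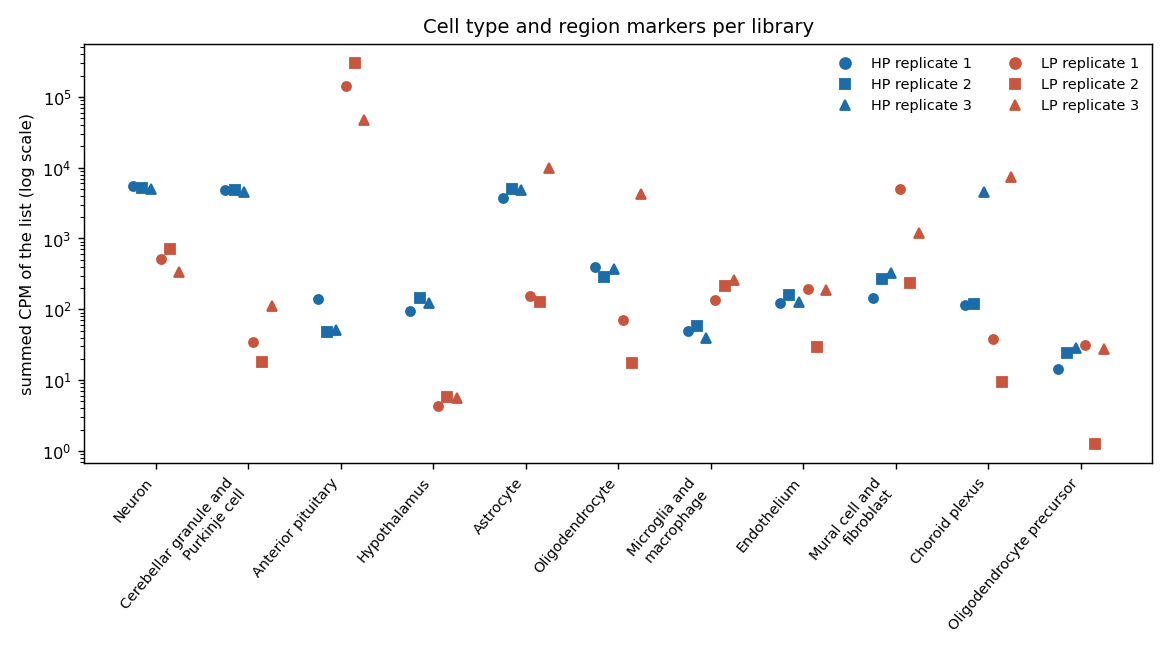
Summed CPM (log scale, of library totals) of each cell type or region list in each library, blue for HP and red for LP, with 1 symbol per replicate. Neuronal and cerebellar lists were higher in all 3 HP libraries, the anterior pituitary list was higher in all 3 LP libraries, and the LP libraries differed from each other in glial and mural lists.

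Among the tested genes, 3 of 3 netrin receptors, 2 of 3 EPHB receptors and 2 of 3 plexins were higher in HP, SLIT2 and its receptor ROBO1 were higher in LP, and the ephrins split between the groups. Of the 70 genes, 65 had a count in some library, 38 had counts in all 6, and 33 passed the filter on low counts and were tested. By edgeR's quasi-likelihood test, Benjamini-Hochberg adjusted over all 13078 genes, 14 were higher in HP while 5 were higher in LP at an adjusted p of 0.05. Over all tested genes 51.2% were called, 27.1% higher in HP and 24.1% higher in LP, against 57.6%, 42.4% and 15.2% of the tested guidance genes. The total is near the background and is no result about the families as a whole. The median log2 fold change, HP minus LP, was 0.62 for the 33 tested genes and 0.02 for all tested genes. It was -0.033 over the 65 genes tested without the filter, and 0.30, 0.34 and 0.99 without LP replicates 2, 1 and 3. A gene passed the filter if enough libraries held it, so these shares describe the tested genes and not all 70. With library totals alone 49.8% of all genes were called, 31.4% higher in HP and 18.4% in LP, and the guidance calls stayed at 14 and 5. HP values lay wholly above LP values in 15 tested guidance genes and wholly below in 5, beside 33.9% and 29% of all tested genes (62.9% together).

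By role, 9 of 17 tested receptors were higher in HP and 2 in LP, with a median log2 fold change of 1.85. These shares were 52.9% and 11.8%, beside 27.1% and 24.1% of all tested genes. Among 16 tested ligands 5 were higher in HP and 3 in LP (31.2% and 18.8%), with a median of 0.08. The other 17 receptors and 20 ligands did not pass the filter. Of these receptors, EPHA1, EPHA3, NRP2 and PLXNB1 had every LP library above every HP library, and none had the reverse. All libraries together gave these genes only 26, 16, 16 and 17 counts, so the separations rest on little. How often other untested features separate in this way was not computed, so this is no result about the untested receptors. Whether ligands and receptors differ was not tested.

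**Figure D2:**
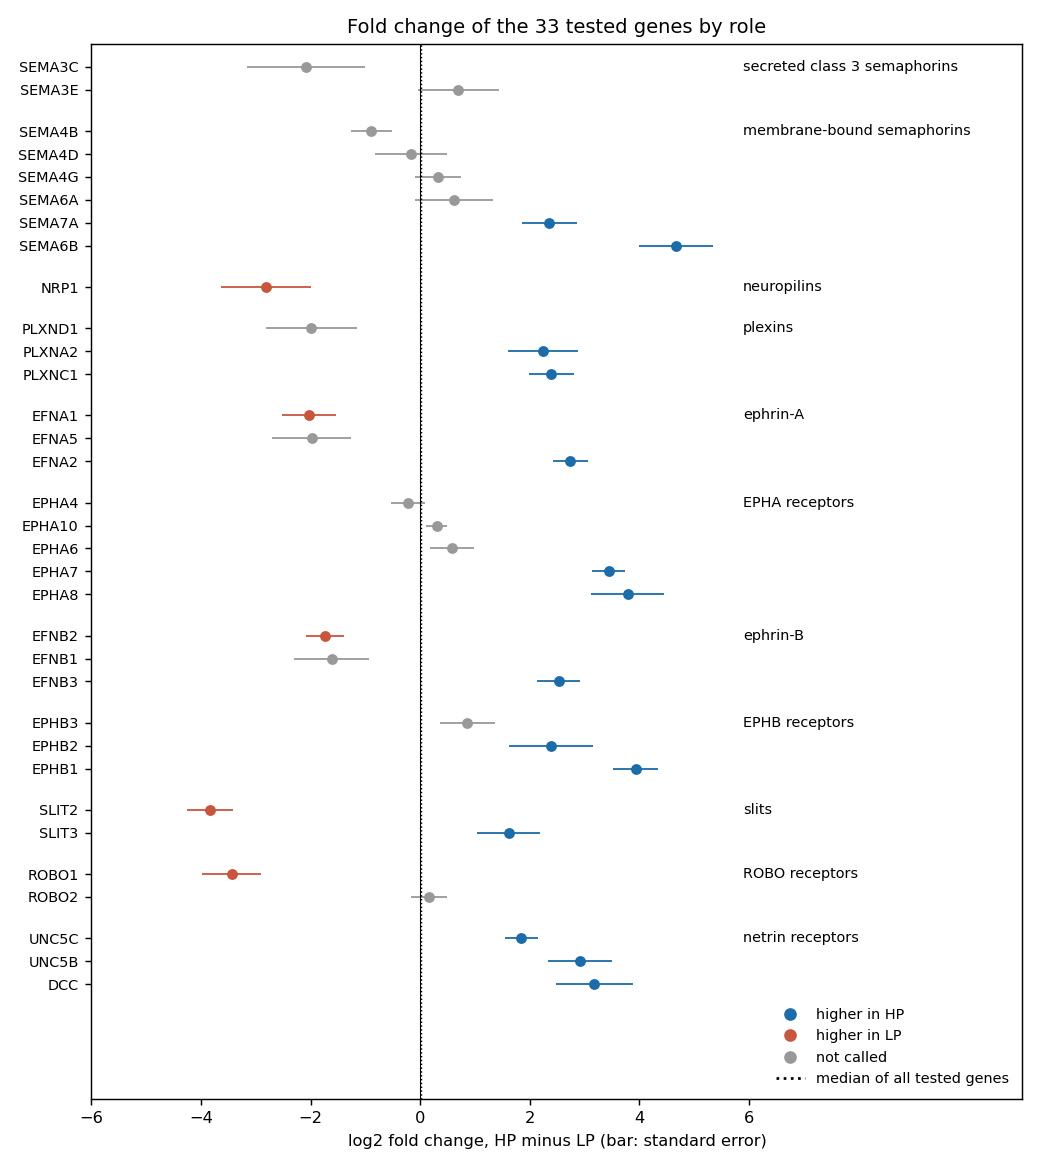
Log2 fold change, HP minus LP, of the 33 tested genes by role, with the standard error as a bar. Blue genes were higher in HP, red genes higher in LP, grey genes were not called, and the dotted line is the median of all tested genes at 0.02. Within the ephrins, the slits and the plexins, points lie on both sides of 0.

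The 3 tested netrin receptors were higher in HP, while their ligands were hardly measured. DCC, the receptor through which netrin attracts axons, stood at 26.7, 12.7 and 12.6 CPM in HP replicates 1 to 3 and at 0.921, 0.518 and 4.24 CPM in LP replicates 1 to 3. The lowest HP value was above the highest LP value, which came from LP replicate 3, and the log2 fold change was 3.18 ± 0.70 (SE) with an edgeR adjusted p of 0.00814. UNC5C, a repulsive netrin receptor whose loss in mice gives a malformed cerebellum, had 594, 486 and 283 CPM in HP and 136, 117 and 124 in LP. All HP values exceeded all LP values, the LP libraries were close together, and the fold was 3.61 (log2 1.85 ± 0.30 (SE), edgeR adjusted p = 0.00286). UNC5B, a member of the same family that vessels also use, had 41.3, 38.1 and 26.5 CPM in HP and 1.84, 2.59 and 9.53 in LP. It was 7.60-fold higher in HP (log2 2.93 ± 0.58 (SE), edgeR adjusted p = 0.00561). Without LP replicate 3 the fold of DCC was 21.6 instead of 9.07 and that of UNC5B 15.3. In LP replicates 1 to 3 DCC had 2, 1 and 8 counts and UNC5B 4, 5 and 18, so the size of these folds is uncertain. UNC5A and UNC5D had 3 and 5 counts in all and were not tested.

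None of the 6 netrin and netrin-G genes could be tested. NTN1, the classical attractant read by DCC, had 2, 0 and 0 counts in HP against 0, 1 and 0 in LP, which leaves its level within the counting limit of every library. NTN3 and NTN5 had no count at all, and NTNG1 and NTNG2, the membrane-anchored netrin-G genes, had 4 counts and 1 count, in LP. NTN4, a netrin of basement membranes, had 4, 8 and 11 counts in HP against 65, 10 and 3 in LP. Its 65 counts came from LP replicate 1, the library with the most mural cell and fibroblast transcripts. The other LP libraries lay within or near the HP range, and the part of those markers in the NTN4 counts was not tested.

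Eph receptors of both classes were higher in HP where they were called. EPHB1, a receptor of B ephrins, stood at 289, 215 and 141 CPM in HP and 9.21, 20.7 and 12.2 CPM in LP. The groups were far apart, with a log2 fold change of 3.93 ± 0.42 (SE), a 15.3-fold difference (edgeR adjusted p = 8.23e-04). EPHB2, which in mice binds NMDA receptors at synapses, had 19.0, 20.6 and 10.2 CPM in HP and 5.06, 4.15 and 0 in LP, where LP replicate 3 had no count. It passed with an edgeR adjusted p of 0.0338 and a fold of 5.24, or 3.48 without LP replicate 3. That call was lost without HP replicate 1, 2 or 3 or LP replicate 2 (edgeR adjusted p = 0.101, 0.106, 0.0522 and 0.0518). EPHB3 had 4.45, 5.84 and 5.43 CPM in HP and 1.84, 1.55 and 5.29 in LP and was not called (edgeR adjusted p = 0.181), with LP replicate 3 in the HP range. Without that library it was 2.96-fold higher in HP (edgeR adjusted p = 0.0303).

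Of the receptors of A ephrins, 2 of 5 tested were higher in HP and none in LP. EPHA7 had 52.6, 54.9 and 36.0 CPM in HP and 4.14, 4.15 and 4.76 CPM in LP, with LP libraries close together. Its fold was 10.9 (log2 3.44 ± 0.30 (SE), edgeR adjusted p = 5.27e-04), and its log2 fold change lay between 3.40 and 3.68 whichever library was left out. EPHA8 had 12.9, 17.8 and 19.0 CPM in HP and 2.30, 1.04 and 0 in LP, the last 0 being LP replicate 3. The groups did not overlap (log2 3.79 ± 0.67 (SE), edgeR adjusted p = 0.00345), and the fold of 13.8 became 29.2 without LP replicate 1. The LP counts of EPHA8 were 5, 2 and 0, so both folds rest on few counts and their size is uncertain.

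EPHA10, whose kinase domain is inactive, had 166, 123 and 131 CPM in HP and 118, 111 and 112 in LP. HP values were just above LP values, but the fold of 1.23 was not called (edgeR adjusted p = 0.236), and the deposited TPM pointed the other way, also uncalled. EPHA6 had 12.1, 14.4 and 15.6 CPM in HP and 13.4, 9.85 and 4.76 in LP, so that only LP replicates 2 and 3 lay below HP (edgeR adjusted p = 0.250). EPHA4, which binds ephrins of both classes, was not called either (log2 -0.23 ± 0.31 (SE), edgeR adjusted p = 0.560). Among the untested receptors, EPHA5 had 9, 17 and 22 counts in HP against 8, 4 and 3 in LP. EPHA1 had 1, 0 and 0 counts in HP against 15, 7 and 3 in LP, a ratio of 34.8 toward LP (95% counting interval 5.69 to 1427). EPHA3 had no count in HP and 3, 4 and 9 in LP, at least 2.52-fold higher in LP against 3 counts per HP library. EPHB4, a receptor of venous endothelium, had 2, 6 and 10 counts in HP against 20, 8 and 4 in LP, and EPHA2 and EPHB6 had none.

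Ephrins of each class were called in both directions. EFNA2, an ephrin held to the membrane by a lipid anchor, had 20.2, 22.7 and 18.0 CPM in HP and 3.68, 2.59 and 2.65 CPM in LP. Every HP library was above every LP library, by 6.69-fold (log2 2.74 ± 0.32 (SE), edgeR adjusted p = 0.00103). EFNA1, of the same anchored class and also made by vessels, had 4.05, 3.78 and 3.73 CPM in HP and 16.6, 6.74 and 24.4 in LP. It was 4.09-fold higher in LP, with LP replicate 2 closest to HP (log2 -2.03 ± 0.50 (SE), edgeR adjusted p = 0.0123). The EFNA1 call was lost without HP replicate 1, 2 or 3 (edgeR adjusted p = 0.0546, 0.0588 and 0.0509). EFNA5 had 7.28, 3.09 and 1.02 CPM in HP and 19.3, 19.2 and 5.82 in LP. The groups overlapped between HP replicate 1 and LP replicate 3, and it missed the threshold narrowly (log2 -1.98 ± 0.72 (SE), edgeR adjusted p = 0.0508). Without HP replicate 1 it was 6.69-fold higher in LP (edgeR adjusted p = 0.0419), and without LP replicate 3 the adjusted p was 0.00997. It was also called higher in LP with DESeq2 (adjusted p = 0.0235), limma-voom (0.0492), TPM with limma (0.0340) and without the genes above 1% of a library (edgeR, 0.0474).

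EFNB3, a transmembrane ephrin, had 9.71, 9.95 and 10.2 CPM in HP and 0.921, 2.07 and 2.12 CPM in LP. The HP libraries were nearly equal and 5.78-fold above LP (log2 2.53 ± 0.40 (SE), edgeR adjusted p = 0.00237). EFNB2, known as a marker of arterial endothelium, had 9.71, 13.4 and 11.2 CPM in HP and 49.3, 22.8 and 42.4 in LP. It was 3.32-fold higher in LP without overlap (log2 -1.73 ± 0.35 (SE), edgeR adjusted p = 0.00597). EFNB1 had 4.05, 8.58 and 3.39 CPM in HP and 18.4, 4.15 and 27.0 in LP, with LP replicate 2 inside the HP range, and was not called (edgeR adjusted p = 0.0821), whereas without that library the adjusted p was 0.0107. The 9 endothelial markers had a median log2 fold change of -1.80 over the 6 tested, with PECAM1 and KDR called higher in LP and TIE1 higher in HP. The 3 untested markers CDH5, TEK and EGFL7 had every LP library above every HP library. The list summed to 123 to 159 CPM in HP, where FLT1 alone gave 83.4, 103 and 50.2 CPM, and to 191, 29.8 and 190 CPM in LP replicates 1 to 3, and none of the 9 was without a count in either group. EFNA1, EFNB1 and EFNB2 were lowest in LP replicate 2 among the LP libraries, as this list was and as 19 of the 33 tested genes were. In that library the list was below every HP library, EFNB1 was within the HP range, and EFNA1 and EFNB2 were above every HP library. The part of the endothelial list in the ephrin result was not tested. EFNA3 and EFNA4 had 5 and 17 counts in all and were not tested.

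**Figure D3:**
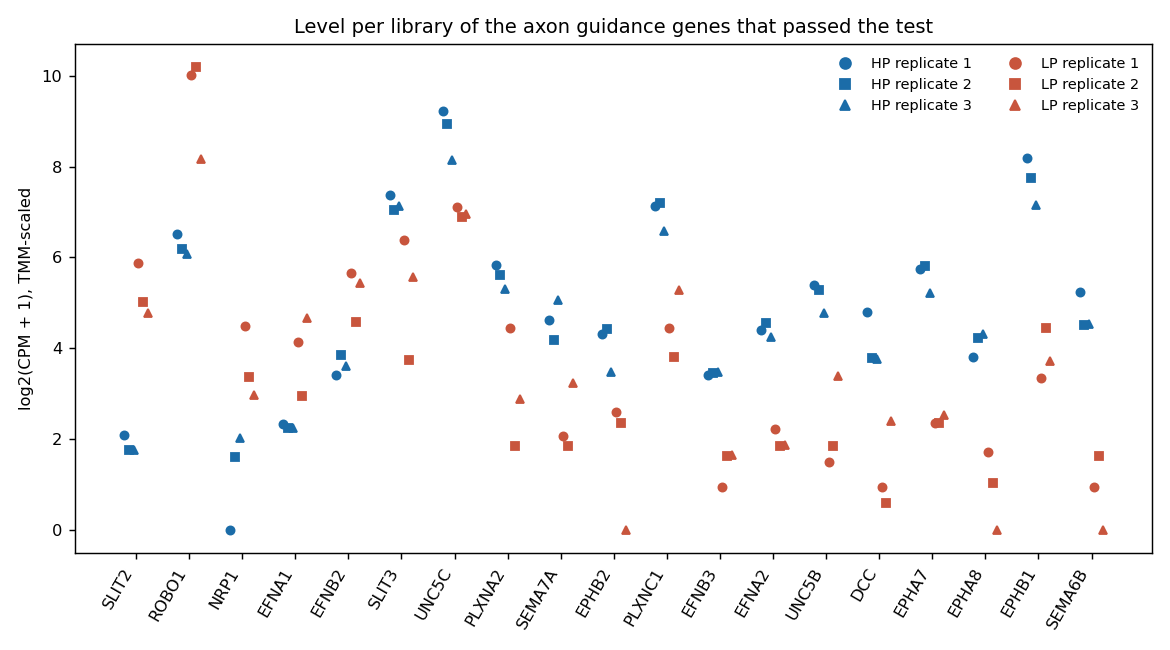
Level of each of the 19 called genes in each library as log2(CPM + 1), ordered by fold change from higher in LP at the left to higher in HP at the right. Blue symbols are HP and red symbols LP. SLIT2 and ROBO1 show the widest gap toward LP, SEMA6B and EPHB1 the widest toward HP, and the LP symbols are spread more than the HP symbols in most genes.

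Semaphorins and plexins that were called were higher in HP, and the co-receptor NRP1 was higher in LP. SEMA6B, a transmembrane semaphorin that acts on A-type plexins, had 36.8, 22.0 and 22.1 CPM in HP and 0.921, 2.07 and 0 CPM in LP. It had the largest fold of the 33 tested genes toward HP, 25.6 (log2 4.68 ± 0.68 (SE), edgeR adjusted p = 0.00181), and 49.2 without LP replicate 2. The LP counts of SEMA6B were 2, 4 and 0, so both folds rest on few counts and their size is uncertain. PLXNA2, an A-type plexin, had 56.2, 47.7 and 38.7 CPM in HP and 20.7, 2.59 and 6.35 in LP. LP replicate 1 stood above the other LP libraries but below HP, and the fold was 4.73 (log2 2.24 ± 0.64 (SE), edgeR adjusted p = 0.0223), or 10.6 without it. The PLXNA2 call was lost without HP replicate 1 or 2 (edgeR adjusted p = 0.0693 and 0.0594) and with the deposited TPM (limma adjusted p = 0.0704).

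SEMA7A, a lipid-anchored semaphorin, and PLXNC1, its plexin receptor, were both higher in HP. The ligand stood at 23.5, 17.2 and 32.6 CPM in HP and 3.22, 2.59 and 8.47 CPM in LP (log2 2.36 ± 0.50 (SE), edgeR adjusted p = 0.00727). The receptor stood at 139, 146 and 94.4 CPM in HP and 20.7, 13.0 and 38.1 CPM in LP (log2 2.40 ± 0.41 (SE), edgeR adjusted p = 0.00339). In both genes LP replicate 3 was the highest LP library and still below HP. Without it the fold of SEMA7A was 8.05 instead of 5.12.

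NRP1, the co-receptor of class 3 semaphorins and of vascular endothelial growth factor, had 0, 2.06 and 3.06 CPM in HP and 21.6, 9.33 and 6.88 in LP. It was 7.03-fold higher in LP (log2 -2.81 ± 0.82 (SE), edgeR adjusted p = 0.0235), with counts of 0, 6 and 9 in HP and 47, 18 and 13 in LP. The fold was 4.62, 10.7 and 4.48 without HP replicate 1, HP replicate 3 and LP replicate 1, and the call was lost without HP replicate 2 or LP replicate 1 (edgeR adjusted p = 0.0892 and 0.0749). NRP2 had only 1, 1 and 1 counts in HP against 5, 3 and 5 in LP, a ratio of 6.03 toward LP (95% counting interval 1.66 to 32.97).

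The 2 tested class 3 semaphorins of 6 were not called, and their LP libraries were far apart. SEMA3C had 15.0, 15.1 and 4.07 CPM in HP and 92.1, 1.55 and 50.8 CPM in LP. LP replicates 1 and 3 were above all HP libraries and LP replicate 2 below them, and the log2 fold change of -2.08 ± 1.08 (SE) was not called (edgeR adjusted p = 0.142). Without LP replicate 2 it was 6.42-fold higher in LP (edgeR adjusted p = 0.00861), and without LP replicate 1 the fold was 2.28. SEMA3E had 14.6, 22.3 and 16.6 CPM in HP and 4.14, 3.11 and 25.9 in LP, where LP replicate 3 alone was as high as HP (edgeR adjusted p = 0.454). Without that library SEMA3E was 4.74-fold higher in HP (edgeR adjusted p = 0.00237). PLXND1, the plexin of developing vessels that binds SEMA3E, had 12.9, 8.58 and 7.13 CPM in HP and 58.5, 3.63 and 51.4 in LP. It followed SEMA3C in that LP replicate 2 was low, was not called (edgeR adjusted p = 0.0805), and was 5.84-fold higher in LP without that library (edgeR adjusted p = 0.00228). Mural cell and fibroblast markers took the same order in LP, with 5025, 234 and 1182 CPM in replicates 1 to 3. For that list 4 of 7 tested markers were higher in LP, and its part in the spread of SEMA3C and PLXND1 was not tested. SEMA3B had 1 count in HP and 7, 0 and 35 in LP, a ratio of 58.4 toward LP (95% counting interval 9.92 to 2361). That interval leaves out the spread between sheep, and the groups overlapped because LP replicate 2 had no count. SEMA3G had no count in HP and 3, 2 and 3 in LP, and SEMA3D had 2, 11 and 8 counts in HP against 22, 4 and 7 in LP. SEMA3F had no count.

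Of 6 tested membrane-bound semaphorins, 4 were not called. SEMA4D, a ligand of B-type plexins that oligodendrocytes make in mice, had 17.0, 24.0 and 28.5 CPM in HP and 11.1, 10.9 and 56.6 CPM in LP. LP replicate 3, the library richest in oligodendrocyte markers, was above all others, and the sign of the difference turned without it, to 2.07-fold higher in HP (edgeR adjusted p = 0.0284, against 0.846 with all libraries). The uncalled sign also turned with library totals alone, limma-voom, TPM, no filter and without HP replicate 1. LP replicate 3 also stood apart in astrocyte and choroid plexus markers, and the part of these lists in the SEMA4D values was not tested. SEMA6A had 10.5, 7.89 and 13.6 CPM in HP and 5.53, 1.04 and 14.3 in LP, again with LP replicate 3 at the HP level (edgeR adjusted p = 0.484), and its fold of 1.54 was 3.06 without that library. SEMA4B had 12.5, 13.0 and 10.2 CPM in HP and 11.97, 25.9 and 28.6 in LP, where LP replicate 1 was in the HP range (edgeR adjusted p = 0.0831). Without LP replicate 1 it was 2.27-fold higher in LP (edgeR adjusted p = 0.0180). SEMA4G was close to even (log2 0.33 ± 0.43 (SE)).

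The other members of these families were at the edge of detection. PLXNA1, PLXNA3 and PLXNA4 had 1 to 3 counts each over all libraries, so of the A-type plexins only PLXNA2 was measured well. PLXNB1, PLXNB2 and PLXNB3, the B-type plexins, had 17, 17 and 19 counts in all, and the 14 LP counts of PLXNB3, known from oligodendrocytes, came from LP replicate 3. SEMA5A had no count in HP and 1, 0 and 15 in LP, from the same library for all but 1 count. That library stood apart in several marker lists, and their part in the counts of PLXNB3 and SEMA5A was not tested. SEMA4A had 4, 12 and 5 counts in HP against 4, 6 and 8 in LP, and SEMA6D 4, 10 and 14 against 3, 10 and 12, with overlapping groups. SEMA4C, SEMA4F, SEMA5B and SEMA6C had 3 to 7 counts each in all.

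In the slit and ROBO families the genes called split by member. SLIT2, a secreted repellent, had 3.24, 2.40 and 2.38 CPM in HP and 57.6, 31.6 and 26.5 CPM in LP. It had the largest fold of the 33 tested genes toward LP, 14.3 (log2 -3.83 ± 0.42 (SE), edgeR adjusted p = 8.67e-04), and a log2 fold change between -4.08 and -3.42 whichever library was left out. ROBO1, one of its receptors, had 90.2, 72.1 and 66.2 CPM in HP and 1030.5, 1167 and 285 CPM in LP. The groups were separated by 10.9-fold (log2 -3.44 ± 0.54 (SE), edgeR adjusted p = 0.00241), and LP replicate 3 was well below the other LP libraries. That library also had the fewest anterior pituitary counts of the LP group, 47169 CPM against 142155 and 299821, and the part of that tissue in the ROBO1 result was not tested. ROBO1 overlaps 6 other annotated genes, SLIT3 2 and SLIT2 1, so their counts may hold reads of a neighbour. The same limit holds for 28 of the 70 genes. Among the other called genes EPHB1 and UNC5B overlap 2 each, and EPHA7, PLXNC1, DCC and NRP1 1 each. Among uncalled genes EPHA6 overlaps 4, EFNA5 and SEMA3C 2 each and PLXND1 1.

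SLIT3 went the other way, with 164, 131 and 139.9 CPM in HP and 82.4, 12.4 and 46.6 CPM in LP. The HP libraries were close to each other and above all LP libraries, which differed widely, and the fold was 3.07 (log2 1.62 ± 0.58 (SE)). Its edgeR adjusted p of 0.0490 was just under the threshold, and the call was lost without HP replicate 1, 2 or 3 or LP replicate 3 (edgeR adjusted p = 0.116, 0.0906, 0.0907 and 0.0625), while the fold was 4.94 without LP replicate 1. ROBO2, the other main slit receptor, had 72.8, 71.7 and 61.4 CPM in HP and 75.1, 75.1 and 33.9 in LP. Only LP replicate 3 lay below HP, and no difference was called (log2 0.16 ± 0.33 (SE), edgeR adjusted p = 0.698). ROBO4, a receptor of endothelium, had 2, 10 and 11 counts in HP against 8, 2 and 9 in LP. ROBO3 and SLIT1 had 5 counts and 1 count in all.

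**Figure D4:**
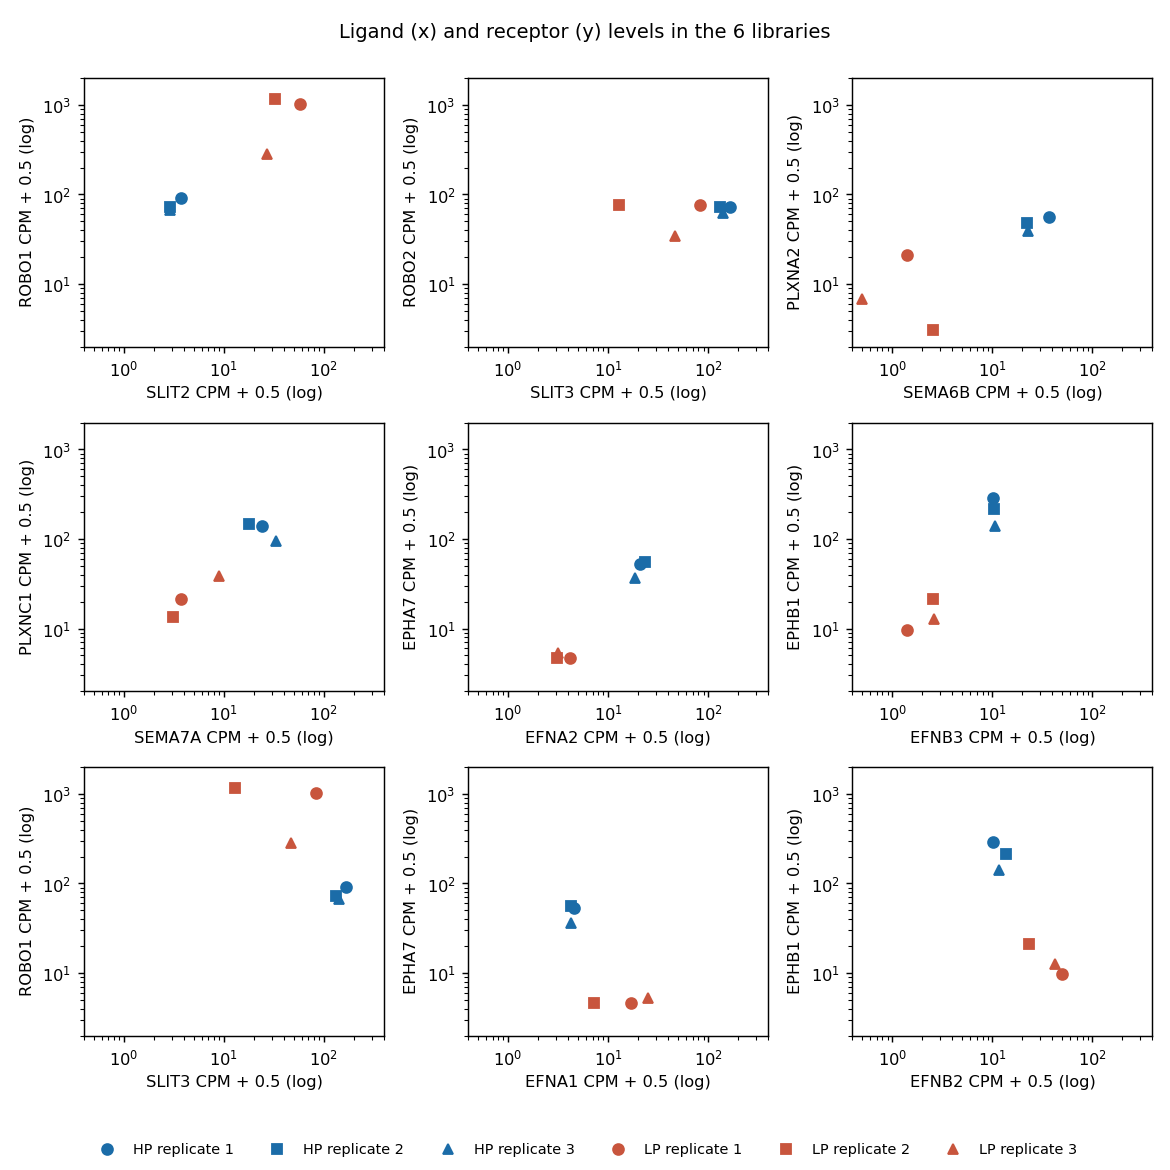
CPM + 0.5 of a ligand (x axis) and a receptor that can bind ligands of its class (y axis) in each library, both on log scales, with blue for HP and red for LP. HP and LP libraries separate along both axes in the same direction for SLIT2 with ROBO1, SEMA6B with PLXNA2, SEMA7A with PLXNC1, EFNA2 with EPHA7 and EFNB3 with EPHB1. For SLIT3 with ROBO2 they separate along the ligand axis only, and for SLIT3 with ROBO1, EFNA1 with EPHA7 and EFNB2 with EPHB1 ligand and receptor differ in opposite directions. All genes shown except ROBO2 were called in these data, so the separation follows from the choice of pairs. Other pairs, such as SLIT2 with ROBO2 and SEMA3E with PLXND1, are not shown.

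The LP libraries varied more than the HP libraries in most of these genes. Over the 33 tested genes the median coefficient of variation was 22.0% in HP and 57.4% in LP, beside 19.0% and 32.7% over all tested genes. It was larger in LP for 28 of the 33. The exceptions were EPHA7, UNC5C and EPHA10, with 8.22%, 7.74% and 3.37% in LP, and EFNA5 and NRP1, whose HP values were the more spread. LP replicate 2 held the lowest LP value of 19 of the 33 genes. The highest LP value came from LP replicate 3 in 15 genes and from LP replicate 1 in 14. Shares over all tested genes were not computed for these counts or for the 28.

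The deposited TPM gave the same direction for 29 of the 33 tested genes and the same call for 18 of the 19 called from counts, on log2(TPM + 1) with limma. In that fit 51.2% of all genes were called, 18.5% higher in HP and 32.6% higher in LP. PLXNA2 was the exception among the called genes. The 2 units nevertheless differed in how they weighed a gene. Per unit of CPM of library totals, the TPM of a guidance gene ranged from 0.0205 for SLIT1 to 7.43 for ROBO2. The 28 genes with counts that were not whole numbers had a median of 0.654 and the 37 other genes with counts one of 0.0621, beside 0.259 over all features with counts. Every one of the 10 genes above 1 was among the 28. In PLXNC1 the weight also differed between libraries, at 1.71, 1.90 and 1.58 in HP and 0.0542, 0.0580 and 1.07 in LP replicates 1 to 3. Its TPM accordingly differed more between the groups than its counts, with 252, 295 and 166 TPM in HP and 1.07, 0.599 and 39.1 TPM in LP, a difference of 5.51 on the log2(TPM + 1) scale (limma adjusted p = 0.00782) against 2.40 from counts. Other genes also varied in weight among LP replicates 1 to 3, such as SLIT3 (5.19, 26.3 and 9.84) and SEMA4D (3.78, 2.93 and 0.724). EPHA8 had 1.10 and 0.0749 in LP replicates 1 and 2. SLIT3 had 407, 265 and 439 TPM in LP, less spread than its 82.4, 12.4 and 46.6 CPM. A higher weight in LP was general: it held for 55 of 57 guidance genes with counts in both groups (median LP over HP 1.99) and for 94.9% of all such features (median 1.99). The median difference of all genes in TPM was -0.31, and EPHA10, at 0.30 from counts and -0.55 from TPM, was uncalled in both. How the authors treated transcript length is not stated, and levels are therefore not compared between genes here.

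**Figure D5:**
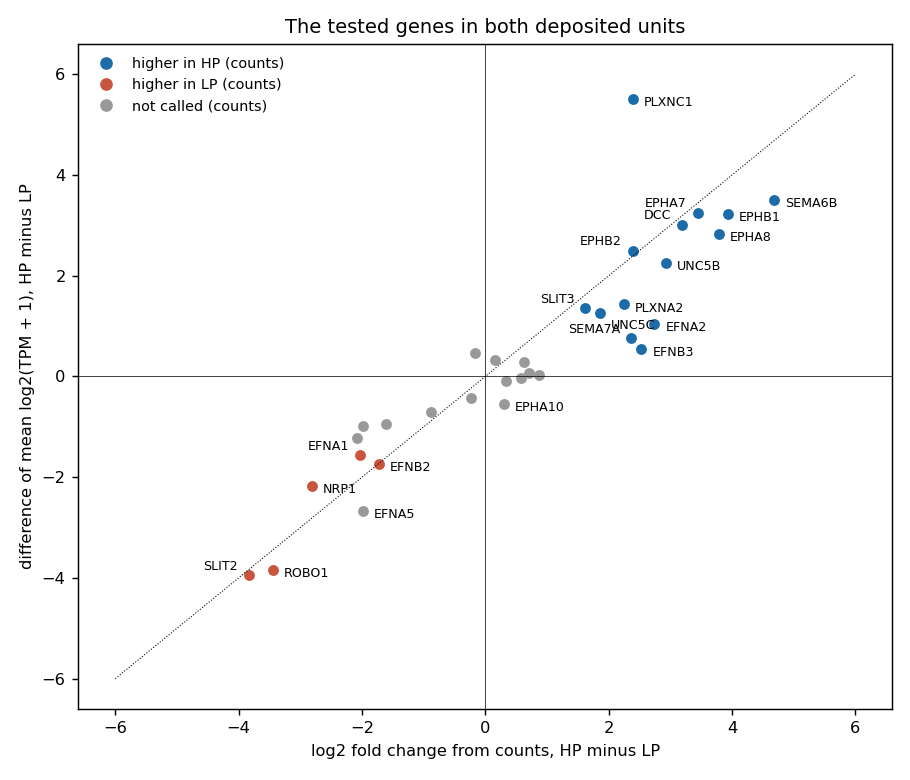
Log2 fold change from counts (x axis) against the difference of mean log2(TPM + 1) (y axis), HP minus LP, for the 33 tested genes, coloured by the call from counts. The dotted line marks equal values. PLXNC1 lies above the line, at 2.40 from counts and 5.51 from TPM, and the remaining points lie on both sides of it.

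Of 62 further guidance genes, listed for their role downstream of these receptors or beside them, 48 were tested, with 21 higher in HP, 12 higher in LP and the others not called, against 27.1% and 24.1% of all genes. Actin-linked and adaptor genes had 6 of 11 higher in HP and 1 in LP. Among them were ABLIM1 (4.80-fold, edgeR adjusted p = 6.40e-04), ABLIM3 (5.78-fold, edgeR adjusted p = 8.51e-04), both encoding actin-binding LIM proteins, and MICAL2 (6.90-fold, edgeR adjusted p = 0.00148), of the family that oxidises actin downstream of plexins.

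Of 11 tested kinases, 5 were higher in HP while 3 were higher in LP. The PAK kinases, which act on the cytoskeleton, split: PAK5 (11.6-fold, edgeR adjusted p = 5.90e-04) and PAK1 (3.02-fold, edgeR adjusted p = 0.00116) were higher in HP. PAK3 (4.08-fold, edgeR adjusted p = 0.0199), PAK2 (2.32-fold, edgeR adjusted p = 0.00951) and ROCK1 (2.52-fold, edgeR adjusted p = 0.0125), named after their values were seen, were the 3 higher in LP. The CRMP family, whose proteins carry semaphorin signals to microtubules, had no gene higher in HP and 2 of 4 higher in LP, DPYSL3 and DPYSL4, named here after their values were seen (4.51-fold and 3.92-fold, edgeR adjusted p = 0.00357 and 0.00330). Other ligands and receptors had 3 of 12 tested genes higher in each group. The background over all tested genes was 27.1% toward HP and 24.1% toward LP. The 3 of 12 in each direction, and the 3 of 11 kinases toward LP, are near it. Whether any of these small lists differs from that background was not tested. CHL1, a cell adhesion molecule that works with semaphorin receptors, was 5.74-fold higher in HP (edgeR adjusted p = 0.00105). The neuronal markers named above were higher in HP in 7 of 8 tested genes, and none was without a count in LP. Their part in the results of these genes was not tested.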

How the data were processed

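Total RNA was reverse transcribed, amplified by PCR and sequenced as full-length cDNA on a Nanopore instrument, per the labels. Minimap2, version 2.17-r941, comes from the submitters' notes on processing, while counting tool, build, annotation and strand setting were not given in the sources used here. Estimated counts per gene, as the authors deposited them, 24.0% to 29.8% of values not whole in a library, were rounded. The TPM values are also as deposited, and how they treat length is not stated. Counting intervals pool the libraries of a group. Intervals and floors cover counting error only, not the spread between sheep, and amplified reads are not independent molecules. Nothing says whether samples were handled in batches, and the p-values measure the spread between these samples.

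In R 4.3.3 with edgeR 4.0.16, genes were filtered with filterByExpr, scaled with TMM and tested with glmQLFTest, two-sided, with Benjamini-Hochberg adjustment over all 13078 tested genes. The test was first run on simulated counts with known changes. Log2 fold changes are HP minus LP, their standard errors come from the quasi-likelihood statistic, and folds are the higher over the lower group. Alternatives used DESeq2 1.42.0 and limma 3.58.1.

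In each role class the 4 tested genes with the smallest p and the gene with most counts are given per library, and the others by counts or ranges. Members and lists were chosen with earlier results of these data known. Names were checked against RefSeq, assembly ARS-UI_Ramb_v3.0, which held all 70. In it 28 overlap another gene, 12 of them a protein-coding one, and ROBO1 overlaps 6, so reads may be shared. Some genes are not reported here. No sequences were used here.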

Additional observations from a re-analysis of the deposited data

How the results depend on the processing

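No paired analysis was possible because the labels give no replicate numbers that the groups share. The guidance genes called, 19 in the report, numbered 19 with library totals alone, 22 with DESeq2, 20 with limma-voom, 19 and 18 with TPM and pseudocounts of 1 and 0.1, 23 without a filter, 19 with the stricter filter, 19 without the 10 genes above 1% of a library, 18 with the robust prior and 21 without HP replicate 3 and LP replicate 3, both high in TTR, an alternative chosen after seeing the data. Calls numbered 14 to 23 when 1 library was left out, 3 to 8 of them higher in LP and 11 to 16 higher in HP. Over all genes these settings called 33.2% to 56.9%. The median of all genes moved from 0.02 to 0.27 with library totals alone and to -0.31 and -0.40 with TPM. Guidance genes higher in LP numbered 8 with DESeq2, which added EFNA5, EFNB1 and PLXND1, and 9 without a filter. Of the 19 genes, 14 were called the same way under all 16 alternatives, and EPHB2, EFNA1, NRP1, PLXNA2 and SLIT3 were not. SLIT3 was also lost with the robust prior (edgeR adjusted p = 0.0558) and without the genes above 1% of a library (0.0505), and without both libraries high in TTR (0.105), PLXNA2 with TPM (limma adjusted p = 0.0704 and 0.0765), and EPHB2 with TPM and a pseudocount of 0.1 (0.103).

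The median log2 fold change of the tested guidance genes was 0.62, -0.033 without a filter, where 65 genes were tested, 1.39 without both libraries high in TTR, and 0.30 to 0.99 when 1 library was left out (0.34, 0.30 and 0.99 without LP replicates 1, 2 and 3). The signalling genes called higher in LP, 12 in the report, numbered 5 to 14 when 1 library was left out, with 5, 6 and 7 without HP replicates 1, 2 and 3. The sign turned in uncalled genes. SEMA4D stood at 0.031 with library totals alone, 0.28 with limma-voom, 0.46 and 0.47 with TPM, 0.036 without a filter, 0.87 with both TTR-rich libraries left out, and ranged from -0.53 to 1.05 when 1 library was left out. EPHA10 was -0.55 and -0.57, EPHA6 -0.041 and -0.069 and SEMA4G -0.097 and -0.28 with TPM and pseudocounts of 1 and 0.1. ROBO2 was -0.094 without both libraries high in TTR and -0.16, without LP replicate 3, to 0.34 when 1 library was left out. The cause of these changes was not tested, except that more genes were tested without a filter and fewer libraries were used where any was left out. Genes under about 10 counts per library were limited by depth.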
